A study of Homo sapiens with 60 samples.

Results

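HT29 cells, an established human colorectal adenocarcinoma line, were exposed for 24 h to herbal extracts at an equal mass dose of 500 µg/mL, and their RNA was sequenced. Ethanol extracts of single medicinal materials (Poria Cocos, a fungus; Atractylodis Rhizoma, a rhizome; Panax Ginseng, a root) were set against hot water decoctions of the multi-herb formulas Palmul-tang and Sibjeondaebo-tang. These groups were taken from the labels for extract, solvent and dose and comprise 15 of the 60 libraries of the series, 9 with the 3 ethanol extracts and 6 with the 2 decoctions, 3 libraries per extract. The same extracts at 20 µg/mL (15 libraries) and 3 vehicle libraries, labelled 0.1% DMSO, were used alongside, with the middle dose of 100 µg/mL for levels. All libraries came from the same cell line without any genetic change, and the labels do not say whether the 3 libraries of an extract came from separate cultures, so each p-value reflects how much these libraries varied, and that variation may be technical only.

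Both formulas are traditionally composed with a Poria fungus, an Atractylodes rhizome and ginseng among other herbs, and the dose matches only in mass of extract per volume. The solvent, the number of herbs and the set of samples changed together. The sample names carry set number 8 for the decoctions, 9 for Poria and Atractylodes and 10 for Ginseng, and none for vehicle. An effect of the extract type and an offset between sets therefore cannot be told apart at 500 or 20 µg/mL. Where a difference depended on dose it was examined by the dose interaction, the change from 20 to 500 µg/mL with ethanol extracts minus that with decoctions, in which an offset that is the same at both doses cancels. Extracts, not libraries, are the independent units of the question, and 3 against 2 extracts cannot give an exact permutation p below 0.1.

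Depth was 20.03 to 29.62 M counts with ethanol extracts and 19.41 to 27.79 M with decoctions, and the share of counts from mitochondrially encoded genes was 7.56% ± 0.416 (SD, n = 9) and 6.98% ± 0.241 (SD, n = 6). In the 3 vehicle libraries this share was 8.91%, 10.17% and 11.63%, above all 15 of these libraries. Whether this shifted the vehicle levels given below was not tested. The first principal component of the 15 libraries (13.8% of the variance) placed all 6 decoction libraries below 0 and all 9 ethanol libraries above 0, and Ginseng replicates 3 and 2 stood apart on later components. All 12 colon epithelial markers were detected, with a summed level of 11830 to 13600 CPM (counts per M, scaled by TMM) with ethanol extracts and 12870 to 13530 CPM with decoctions. Summed fibroblast, endothelial and hepatocyte markers reached at most 3.38 CPM in any of the 15 libraries, and COL1A2, PDGFRA, KDR, CD3E, HLA-DRA and APOB were at 0 in all of them. The 7 leukocyte markers summed to 1399 to 1622 CPM against 1365 to 1599 CPM, led by LYZ, which colon epithelium also makes; 1 of them was called, CD68, a lysosomal protein, higher with ethanol extracts (log2 fold change 0.57; chosen after its values were seen; edgeR adjusted p = 0.0831 with counts summed per extract).

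Intestinal epithelial cells release chemokines, small secreted proteins that attract white blood cells, and antimicrobial proteins when receptors for microbial products or cytokines activate NF-kB, a family of transcription factors held in the cytoplasm by inhibitors of the IkB kind. Interferon-stimulated genes are switched on by a separate route, through STAT and IRF factors, and encode antiviral proteins. NRF2 is a transcription factor that KEAP1 marks for degradation until reactive compounds modify KEAP1; it then raises enzymes that detoxify aldehydes, quinones and other electrophiles.

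At 500 µg/mL, 318 genes were higher and 303 lower with ethanol extracts than with decoctions, together 621 or 3.78% of 16445 tested genes (edgeR quasi-likelihood test, Benjamini-Hochberg adjusted p below 0.05, the threshold for calling a gene throughout). The lower genes held the larger differences: 61 lower genes (0.371%) and 20 higher genes (0.122%) passed a log2 fold change of 0.5. Most tested members of the lists of chemokine and defence genes (13 of 17) and of interferon-stimulated genes (22 of 30) were lower with the ethanol extracts, and most NRF2 regulators and targets (28 of 36), aldo-keto reductases among them, were higher. All lists were chosen with earlier results of these data known. Their shares, here and in the paragraphs below, are therefore descriptions and not tests. In bulk RNA a smaller share of expressing cells and less RNA per cell cannot be told apart. The 9 ethanol and 6 decoction libraries did not overlap in 153 genes (0.93% of those tested), 68 higher (0.413%) and 85 lower (0.517%) with ethanol extracts. With counts summed per extract, so that 3 extracts stood against 2, the comparison called 87 genes, and without Sibjeondaebo-tang it called 220. With the mitochondrial share as a covariate 555 genes were called.

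Among chemokines and epithelial defence genes, 13 of 17 tested genes were lower and 0 higher with ethanol extracts at 500 µg/mL, against 1.84% lower and 1.93% higher among all tested genes. The median log2 fold change of the list was -2.52, beside -0.0022 over all tested genes. CXCL1 (ENSG00000163739, GRCh38 chr4:73869393-73871242), a ligand of the neutrophil receptor CXCR2, lay between 1.37 and 2.57 CPM with ethanol extracts (median 2.14) and between 25.5 and 34.1 CPM with decoctions (median 32.7). The groups were far apart, and the ethanol libraries were near the vehicle level of 1.62 ± 0.372 CPM (SD, n = 3). The difference was 15.3-fold, a log2 fold change of -3.94 ± 0.08 (SE; edgeR adjusted p = 2.33e-37). CXCL8 (ENSG00000169429, chr4:73740506-73743716), the main neutrophil attractant of this cytokine cluster, lay between 5.93 and 8.69 CPM with ethanol extracts (median 7.4) and between 28.6 and 34 CPM with decoctions (median 32.6). Every decoction library was above every ethanol library and above the vehicle level of 5.92 ± 0.639 CPM (SD, n = 3), and the log2 fold change was -2.12 ± 0.05 (SE; edgeR adjusted p = 1.72e-35).

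CCL20 (ENSG00000115009, chr2:227805739-227817564), which attracts CCR6-bearing lymphocytes and dendritic cells, was measured at 0.0776 to 0.331 CPM with ethanol extracts (median 0.152) and at 4.78 to 7.07 CPM with decoctions (median 6.19). Its level with ethanol extracts overlapped that of vehicle, 0.106 to 0.458 CPM, and the log2 fold change between the extract types was -5.21 ± 0.20 (SE; edgeR adjusted p = 2.8e-25). CXCL5 (ENSG00000163735, chr4:73995642-73998779) had no count in any of the 9 ethanol and 3 vehicle libraries and 0.57 to 1.23 CPM with decoctions (median 0.829). Against the limit of 3 counts over the ethanol group, CXCL5 was at least 68-fold lower with ethanol extracts at 500 µg/mL and at least 25.6-fold lower at 20 µg/mL. The remaining CXCR2 ligands of the list showed the same separation without overlap. CXCL6 had a median of 0.17 CPM against 4.14 CPM, CXCL3 of 0.994 against 5.53 CPM, and CXCL2 of 0.404 against 2.25 CPM. CXCL1, CXCL2 and CXCL3 are close copies, and the authors' counting shared their ambiguous reads by estimate, so the split among them is uncertain.

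Of defence genes other than chemokines, PI3, C3, PIGR, LCN2, SAA1 and DUOX2 were called lower. PI3 (ENSG00000124102, chr20:45174876-45176544), which encodes the elastase inhibitor elafin, ranged from 3.58 to 7.15 CPM with ethanol extracts (median 4.56) and from 19.4 to 29.5 CPM with decoctions (median 28.4). These groups did not overlap either, and the log2 fold change was -2.52 ± 0.09 (SE; edgeR adjusted p = 1.02e-27). Complement component C3 had medians of 0.0681 and 2.44 CPM, and PIGR, the receptor that carries IgA across the epithelium, had medians of 0.443 and 3.92 CPM. LCN2, an iron-sequestering antibacterial protein, differed less: 73 to 94.4 CPM with ethanol extracts (median 86.3) against 106 to 137 CPM with decoctions (median 130), a log2 fold change of -0.57 ± 0.05 (SE; edgeR adjusted p = 3.53e-11). Its vehicle range of 110.8 to 122.2 CPM lay above every ethanol library and within the decoction range. SAA1, an acute phase protein, and DUOX2, which makes hydrogen peroxide at the epithelial surface, were called lower from levels below 1 CPM. CXCL16 (-0.16, adjusted p = 0.125), CCL28 (-0.25, adjusted p = 0.111), SLPI (-0.30, adjusted p = 0.28) and DEFB1 (log2 fold change 0.29, adjusted p = 0.667) did not pass the edgeR test.

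**Figure D1:**
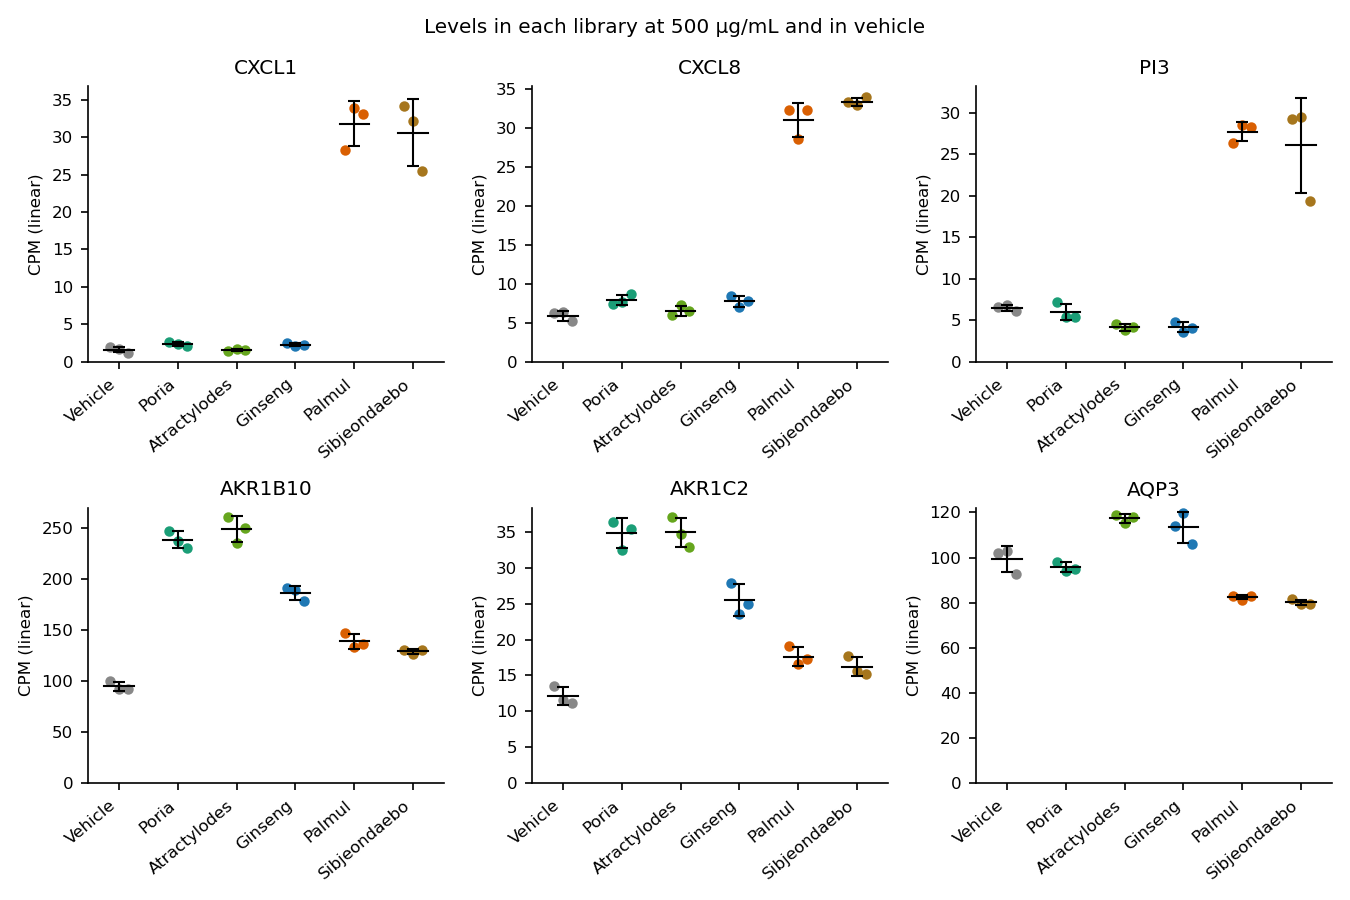
CPM on a linear scale in each library at 500 µg/mL and in vehicle for 6 genes; points are libraries, and bars with error lines are the mean and SD of 3 libraries. CXCL1, CXCL8 and PI3 are higher in all 6 decoction libraries, while AKR1B10, AKR1C2 and AQP3 are higher in all 9 ethanol libraries.

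The promoters of these genes are shown because several share a match to a form of the NF-kB motif, GGG and TTTCC parted by 2 bases of any kind, within 250 bases before the start. It was searched on both strands in RefSeq promoters of build GRCh38.p14. Of 17 tested list members, 11 had an entry and 6 of these (54.5%) held a match, CXCL1, CXCL2, CXCL3, CXCL5, CXCL6 and CCL20, beside 608 of 35116 promoters in all (1.73%). A list member counted if any of its promoter entries held a match, while the share over all promoters counts single entries. The 2 shares are therefore not on the same footing. The windows of CXCL1, CXCL2 and CXCL3 are also nearly alike, as are those of CXCL5 and CXCL6, so the 6 matches are not independent. A match describes the letters in the window, not a bound site. The sequences are written 5′ to 3′ along the gene's strand with the match in capitals, which lies on the opposite strand in CCL20.
CXCL1 promoter, chr4:73869274-73869363, plus strand: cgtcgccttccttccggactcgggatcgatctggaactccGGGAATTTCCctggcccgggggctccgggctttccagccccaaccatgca
CXCL2 promoter, chr4:74099224-74099313, minus strand: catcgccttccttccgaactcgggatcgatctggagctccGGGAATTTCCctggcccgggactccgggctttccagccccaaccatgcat
CXCL3 promoter, chr4:74038719-74038808, minus strand: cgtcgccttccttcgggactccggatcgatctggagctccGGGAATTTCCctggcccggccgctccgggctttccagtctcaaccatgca
CXCL5 promoter, chr4:73998719-73998808, minus strand: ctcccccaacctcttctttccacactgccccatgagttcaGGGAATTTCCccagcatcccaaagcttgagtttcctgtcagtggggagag
CXCL6 promoter, chr4:73836548-73836637, plus strand: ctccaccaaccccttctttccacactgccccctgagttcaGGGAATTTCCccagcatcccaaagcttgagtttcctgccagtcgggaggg
CCL20 promoter, chr2:227813723-227813812, plus strand: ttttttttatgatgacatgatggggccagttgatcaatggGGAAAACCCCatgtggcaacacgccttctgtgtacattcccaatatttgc

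The first base of the match lies 79 bases before the RefSeq start in CXCL1, CXCL3 and CCL20, 78 in CXCL2, 91 in CXCL5 and 90 in CXCL6. The gene positions given above come from GENCODE, whose starts can differ. The spans given for CXCL5 and CCL20 begin further upstream and contain their matches. CXCL8 and the other tested members with an entry held no match to these letters in this window.

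Of NF-kB subunits, inhibitors and survival targets, 10 of 25 tested members were lower and 0 higher, with a median log2 fold change of -0.13. Among all tested genes 1.84% were lower. BIRC3 (ENSG00000023445, chr11:102317450-102339403), an inhibitor of apoptosis, ranged from 5.11 to 8.1 CPM with ethanol extracts (median 6.96) and from 12.2 to 14 CPM with decoctions (median 12.7). Vehicle had 8.97 ± 1.5 CPM (SD, n = 3), with its lowest library, at 7.4 CPM, inside the ethanol range. The ethanol and decoction libraries did not overlap (log2 fold change -0.93 ± 0.07 SE, edgeR adjusted p = 7.36e-15). ICAM1, an adhesion molecule for white blood cells, ranged from 3.96 to 6.36 CPM (median 4.7) and from 7.4 to 9.72 CPM (median 8.85). Its groups were likewise separate, with a log2 fold change of -0.88 ± 0.07 (SE; edgeR adjusted p = 3.08e-14). The cytokine gene IL32 (-1.84 ± 0.20 SE), the deubiquitinase TNFAIP3 (-0.54 ± 0.12) and the ribonuclease ZC3H12A (-0.38 ± 0.04), the last 2 of which restrain NF-kB signalling, had edgeR adjusted p of 1.66e-09, 0.00242 and 4.49e-09. TNFAIP3 was not called with counts summed per extract (edgeR adjusted p = 0.121). IL32 was low, at 0.149 to 0.613 CPM with ethanol extracts and 0.958 to 1.58 CPM with decoctions. The subunits NFKB1 (-0.08, adjusted p = 0.0708), RELA (log2 fold change 0.07, adjusted p = 0.288) and REL (-0.06, adjusted p = 0.741) and the inhibitor NFKBIA (-0.14, adjusted p = 0.157) did not pass the edgeR test. The other subunits, NFKB2 (-0.15) and RELB (-0.21), were called lower (edgeR adjusted p = 0.0232 and 0.0428). Their calls were lost under 10 and 20 of 28 alternative settings and left-out libraries.

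Interferon-stimulated genes were lower with ethanol extracts in 22 of 30 tested members and higher in 0, with a median log2 fold change of -0.25. Among all tested genes 1.84% were lower. OAS2, which makes the second messenger of RNase L, ranged from 1.33 to 2.38 CPM (median 1.74) against 2.52 to 5.29 CPM with decoctions (median 3.62). MX1, a dynamin-like antiviral GTPase, ranged from 4.2 to 5.59 CPM (median 4.53) against 5.75 to 8.88 CPM (median 8.11). IFI6, an interferon-induced membrane protein, ranged from 4.19 to 6.81 CPM (median 4.93) against 6.87 to 8.16 CPM (median 7.69). The ranges did not overlap in these genes, and the log2 fold changes were -1.09 ± 0.17, -0.70 ± 0.11 and -0.58 ± 0.12 (SE; edgeR adjusted p = 9.88e-06, 9e-06 and 0.000889). IFIT1, which binds viral RNA caps, overlapped at the edge, with 2.31 to 3.86 CPM (median 2.88) against 3.79 to 5.63 CPM (median 5.25), and was called at -0.73 ± 0.11 (SE; edgeR adjusted p = 2.85e-06). Vehicle spread across the gap between the types for OAS2 (2.12 to 4.28 CPM) and MX1 (5.08 to 6.72 CPM). For IFI6 vehicle (6.26 to 6.72 CPM) lay in the upper part of the ethanol range, above the ethanol median of 4.93 CPM and below every decoction library. For IFIT1 it lay inside the decoction range (3.81 to 4.89 CPM), below the decoction median of 5.25 CPM. With counts summed per extract 10 members were called lower, and without Sibjeondaebo-tang 9 were.

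The promoters of IFIT1 and IFI6 are shown for their repeated matches to the core of the interferon-stimulated response element, TTTC and TTTC parted by 2 bases of any kind, searched on both strands. It was found in 15 of the 24 tested members with an entry (62.5%), beside 1061 of all 35116 promoters (3.02%). Members were again counted by gene and all promoters by single entry. The matches, in capitals, lie on the opposite strand in IFI6.
IFIT1 promoter, chr10:89392467-89392569, plus strand: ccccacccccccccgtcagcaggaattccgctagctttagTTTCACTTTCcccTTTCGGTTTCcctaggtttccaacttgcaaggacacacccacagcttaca
IFI6 promoter, chr1:27672236-27672388, minus strand: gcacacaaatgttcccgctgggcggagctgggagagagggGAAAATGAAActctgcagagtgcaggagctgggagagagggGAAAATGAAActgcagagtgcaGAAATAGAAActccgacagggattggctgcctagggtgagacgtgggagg

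MMP7 (ENSG00000137673, chr11:102520508-102530753), a matrix metalloproteinase that activates defensins in the mouse gut, belonged to neither list and ranged from 37.8 to 44.8 CPM with ethanol extracts (median 41.9) and from 55.4 to 69.4 CPM with decoctions (median 63.1). The vehicle libraries spread from 43.6 to 63 CPM across the gap between the types, and the log2 fold change was -0.60 ± 0.05 (SE; edgeR adjusted p = 5.25e-12). CEACAM7, an adhesion protein of mature colonocytes, was lower at -1.71 ± 0.19 (SE; edgeR adjusted p = 8.24e-09), while its relatives CEACAM5 and CEACAM6 were higher with ethanol extracts by 0.45 ± 0.08 and 0.26 ± 0.04 on the log2 scale (edgeR adjusted p = 4.04e-05 and 9.88e-06). With counts summed per extract CEACAM5 had an edgeR adjusted p of 0.0874 and CEACAM6 of 0.0264. CEACAM7 was low, at 0.294 to 0.706 CPM with ethanol extracts and 1.118 to 1.975 CPM with decoctions. Reads shared among CEACAM genes were assigned by estimate.

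NRF2 regulators and targets were higher with ethanol extracts in 28 of 36 tested members and lower in 0, with a median log2 fold change of 0.20. Among all tested genes 1.93% were higher. AKR1C2 (ENSG00000151632, chr10:4987400-5018031), an aldo-keto reductase of steroids and lipid aldehydes, ranged from 23.5 to 37.1 CPM with ethanol extracts (median 33) and from 15.2 to 19.1 CPM with decoctions (median 16.9). Both types were above the vehicle range of 11.2 to 13.5 CPM, and the 2 types did not overlap. The difference was 1.86-fold, a log2 fold change of 0.90 ± 0.05 (SE; edgeR adjusted p = 1.08e-19). AKR1B10 (ENSG00000198074, chr7:134527592-134541408), which reduces retinal and other aldehydes, ranged from 178 to 261 CPM (median 236) against 126 to 147 CPM (median 132). The vehicle range of 92 to 100 CPM lay below both, and the difference was 1.66-fold (log2 fold change 0.73 ± 0.04 SE, edgeR adjusted p = 2.45e-21).

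AKR1C1 and AKR1C3, neighbours of AKR1C2 on chromosome 10, differed by 0.66 ± 0.04 and 0.46 ± 0.05 on the log2 scale (SE; edgeR adjusted p = 1.51e-17 and 2.07e-08). The AKR1C genes are near-identical, and their separate values rest on the authors' estimated split of reads. ALDH3A1 (ENSG00000108602, chr17:19737984-19748943), an aldehyde dehydrogenase, ranged from 40.9 to 57.6 CPM (median 51.1) against 35.5 to 38.3 CPM (median 37.3), again without overlap (0.44 ± 0.03 SE, edgeR adjusted p = 1.22e-14). Classical NRF2 targets, chosen after their values were seen, differed less. NQO1, a quinone reductase, ranged from 590 to 742 CPM (median 711) against 545 to 617 CPM (median 593), with overlapping ranges and a log2 fold change of 0.21 ± 0.02 (SE; edgeR adjusted p = 2.18e-08). HMOX1, the heme oxygenase, and GCLM, a subunit of the glutathione synthesis enzyme, differed by 0.35 ± 0.06 and 0.20 ± 0.04 (SE; edgeR adjusted p = 2.36e-05 and 0.00153), and TXNRD1, a thioredoxin reductase, by 0.13 ± 0.05 (edgeR adjusted p = 0.11). With counts summed per extract 6 of the 36 members were called higher. AKR1C3, ALDH3A1, NQO1, HMOX1 and GCLM were not among them, with edgeR adjusted p of 0.0576, 0.0548, 0.294, 0.268 and 0.275.

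A pair of promoters with a match to the antioxidant response element TGACNNNGC, the motif that NRF2 binds, is shown for a called target and an uncalled one. ME1 encodes malic enzyme, a source of NADPH, and was higher by 0.11 ± 0.02 on the log2 scale (SE; edgeR adjusted p = 0.00159, and 0.412 with counts summed per extract; chosen after its values were seen). Matches on either strand stood in 7 of the 26 tested members with an entry (26.9%) and in 3830 of all promoters (10.9%), so these letters are common in windows of this length. Here too members were counted by gene and all promoters by single entry. AKR1C1, AKR1C2, AKR1C3 and NQO1 held none in this window.
ME1 promoter, chr6:83431140-83431228, minus strand: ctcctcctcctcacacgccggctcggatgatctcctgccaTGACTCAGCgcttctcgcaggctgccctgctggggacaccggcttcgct
TXNRD1 promoter, chr12:104215640-104215728, plus strand: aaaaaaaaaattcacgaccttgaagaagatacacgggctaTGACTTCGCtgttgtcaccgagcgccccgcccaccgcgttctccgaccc

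In the list of AhR targets, glucuronidation and drug efflux 5 of 19 tested members were higher and 0 lower, against 1.93% higher among all tested genes. UGT1A10, a glucuronosyltransferase of the gut, ranged from 456 to 528 CPM with ethanol extracts (median 490) against 407 to 438 CPM with decoctions (median 421), and vehicle from 364 to 395 CPM. The types were separate, with a log2 fold change of 0.22 ± 0.03 (SE; edgeR adjusted p = 2.18e-08); UGT1A genes share exons, and their split is uncertain. ABCG2, an efflux pump, ranged from 97 to 126 CPM (median 114) against 90.9 to 103 CPM (median 94), an overlap of ranges with a log2 fold change of 0.24 ± 0.03 (SE; edgeR adjusted p = 9.1e-08). The call of ABCG2 was lost with counts summed per extract (edgeR adjusted p = 0.221).

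AQP3 (ENSG00000165272, chr9:33441154-33447633), a water and glycerol channel of the colon surface, showed a different position against vehicle. It ranged from 94.1 to 120 CPM with ethanol extracts (median 114) and from 79.3 to 83.2 CPM with decoctions (median 81.3). All decoction libraries lay below the vehicle range of 92.8 to 103 CPM, and the log2 fold change was 0.42 ± 0.03 (SE; edgeR adjusted p = 3.38e-15). GPX3, a secreted glutathione peroxidase, ranged from 31.1 to 43.5 CPM (median 36.8) against 23.1 to 28.1 CPM (median 27.1), also with the decoctions below the vehicle range of 31.3 to 33.7 CPM (0.43 ± 0.04 SE, edgeR adjusted p = 1.58e-10). CALB2, the calcium-binding protein calretinin, ranged from 80 to 87.4 CPM (median 83.5) against 60.2 to 68.2 CPM (median 65.9), and every ethanol library was above the vehicle range of 65.5 to 69.9 CPM, while the decoction libraries lay within or below it (0.36 ± 0.03 SE, edgeR adjusted p = 3.59e-13). GPX3 was not called with counts summed per extract (edgeR adjusted p = 0.0559).

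Among lists of epithelial identity, enterocyte and brush border genes were called higher in 7 and lower in 1 of 24 tested members, and mucin and secretory lineage genes higher in 0 and lower in 4 of 26. Over all tested genes, the share beside each list here was 1.93% higher and 1.84% lower. FCGBP, a mucus protein of goblet cells, was lower at -0.37 ± 0.06 (SE; edgeR adjusted p = 2.71e-05), and CDHR5, a brush border protocadherin, was higher at 0.28 ± 0.05 (SE; edgeR adjusted p = 7.04e-05). CLDN1, a tight junction claudin, ranged from 33.9 to 42.8 CPM (median 39.7) against 44.2 to 50.5 CPM (median 46.4), without overlap (-0.27 ± 0.03 SE, edgeR adjusted p = 8.14e-08). PROX1, a transcription factor of intestinal tumour progenitor cells, was lower at -0.35 ± 0.05 (SE; edgeR adjusted p = 2.59e-06) within a Wnt target list of 0 higher and 3 lower among 17. FOXO targets gave 1 higher and 5 lower among 19, including the cell cycle inhibitor CDKN1B (-0.17 ± 0.03 SE, edgeR adjusted p = 1.48e-05) and the cyclin CCNG2 (-0.21 ± 0.04, edgeR adjusted p = 0.00032). With counts summed per extract CLDN1, FCGBP, CDHR5, PROX1, CDKN1B and CCNG2 had edgeR adjusted p of 0.117, 0.00675, 0.246, 0.0716, 0.0821 and 0.0443.

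Lists of basic cell functions showed few or no calls at 500 µg/mL. None of 79 cytosolic ribosomal protein genes, 30 mitosis genes, 32 nuclear genes of oxidative phosphorylation, 28 genes of ribosome biogenesis, 22 genes of ER folding, 15 heat shock protein genes and 13 mitochondrially encoded genes was called by edgeR in either direction. At an unadjusted p below 0.05, which 15.9% of all tested genes passed, stood 7, 6, 5, 8, 5, 2 and 3 of them, in that order, and DESeq2 called 1, 0, 0, 1, 1, 0 and 0. Of 38 DNA replication genes 1 was called higher, and of 28 hypoxia and glycolysis genes 4, beside 1.93% higher among all tested genes. The 13 mitochondrially encoded genes had a median log2 fold change of 0.14, the same direction as the higher mitochondrial share with ethanol extracts.

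**Figure D2:**
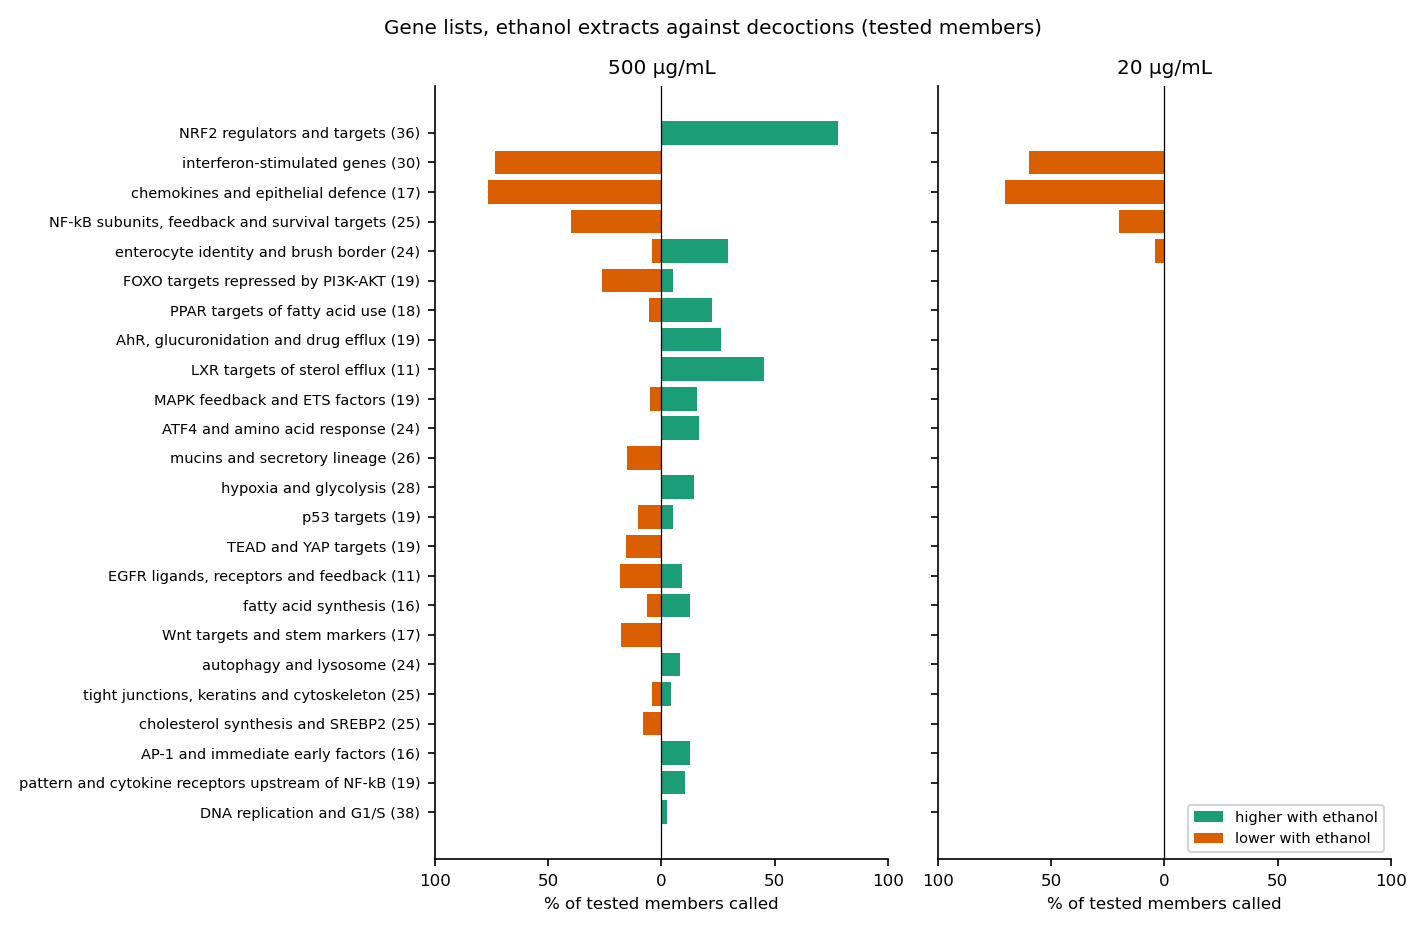
Share of tested members of each gene list called higher (right) or lower (left) with ethanol extracts than with decoctions at 500 and 20 µg/mL. Chemokine and interferon lists point left at both doses, 13 and 12 of 17 and 22 and 18 of 30 members, and the NRF2 list points right at 500 µg/mL only in this display, with 28 of 36 members against 0 at 20 µg/mL.

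At 20 µg/mL the same comparison, in libraries that share none with the higher dose, called 3 genes higher (0.0182%) and 71 lower with ethanol extracts, together 74 or 0.45% of those tested. Of these, 63 were also called in the same direction at 500 µg/mL, which is 85.1% of the 74, 10.1% of the 621 and 0.383% of all tested genes, and 0 were called in the opposite direction. The set numbers were the same at both doses, so here too extract type and an offset between sets cannot be told apart. Chemokines and defence genes were lower in 12 of 17 tested members and interferon-stimulated genes in 18 of 30, against 0.432% of all tested genes lower at this dose. NF-kB list members were lower in 5 of 25. No NRF2 list member was called by edgeR in either direction, with 4 at an unadjusted p below 0.05 (7.87% of all tested genes) and 0 called by DESeq2.

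CXCL1 ranged from 1.3 to 2.41 CPM with ethanol extracts at 20 µg/mL (median 1.81) and from 19.8 to 21.8 CPM with decoctions (median 20.5). The decoction libraries at the lower dose were thus already far above the ethanol libraries, with a log2 fold change of -3.51 ± 0.08 (SE; edgeR adjusted p = 6.94e-34). CXCL8 gave -1.89 ± 0.05, CCL20 -3.98 ± 0.21, PI3 -2.05 ± 0.09 and C3 -4.20 ± 0.26 (SE; edgeR adjusted p = 2.69e-32, 5.84e-20, 2.08e-23 and 1.82e-17). LCN2 and MMP7 were also lower at this dose, by log2 fold changes of -0.54 ± 0.05 and -0.50 ± 0.05 (SE; edgeR adjusted p = 3.16e-10 and 1.9e-09). AKR1B10 at 20 µg/mL ranged from 88.6 to 112 CPM with ethanol extracts (median 99.8) and from 93.4 to 106 CPM with decoctions (median 100.2), and AKR1C2 from 9.64 to 14.4 CPM (median 12.7) and from 11.2 to 12.9 CPM (median 12.2). In both reductases the types overlapped at this dose, with log2 fold changes of 0.01 ± 0.04 (SE; edgeR adjusted p = 0.992) and -0.00 ± 0.05 (edgeR adjusted p = 0.998).

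**Figure D3:**
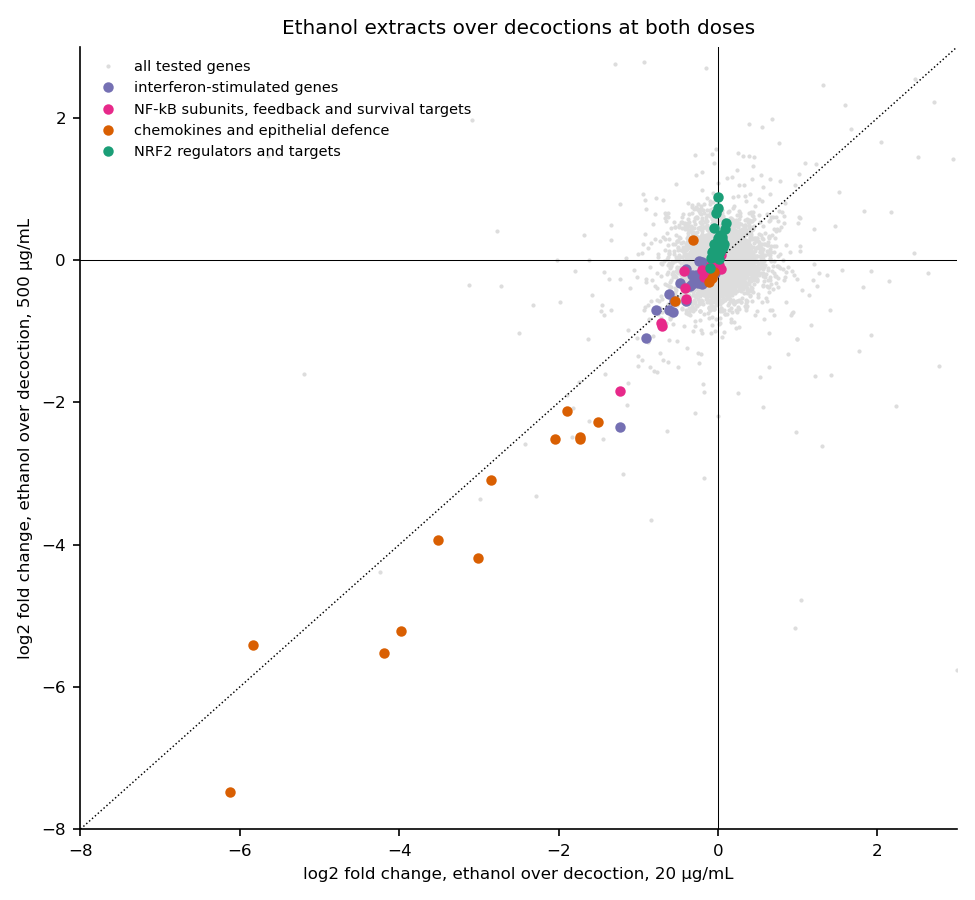
Log2 fold change of ethanol extracts over decoctions at 20 µg/mL (horizontal) and at 500 µg/mL (vertical) for each tested gene, with 4 gene lists coloured; 27 genes lie outside the axes, which run from -8 to 3. Chemokine genes lie along the diagonal in the lower left, and NRF2 genes lie near 0 on the horizontal axis and above 0 on the vertical axis.

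The dose interaction called 67 genes (0.407% of those tested), 44 higher and 23 lower with ethanol extracts. NRF2 list members were higher in 13 of 36 and lower in 0, against 0.268% higher among all tested genes, and the enterocyte list was higher in 3 of 24. None of the 25 NF-kB and 30 interferon list members was called by edgeR, with 4 and 2 at an unadjusted p below 0.05 (6.61% of all tested genes) and 0 and 0 called by DESeq2, and of the chemokine list 1 of 17 was called lower, CXCL3, against 0.14% of all tested genes. At an unadjusted p below 0.05 stood 8 of the 17, and the list's median interaction was -0.43 on the log2 scale. From 20 to 500 µg/mL 8 of the 17 rose with decoctions and 0 fell, and 1 rose and 1 fell with ethanol extracts. The largest positive interaction among named genes was that of AKR1C2, 0.90 ± 0.07 on the log2 scale (SE; edgeR adjusted p = 2.77e-12). AKR1B10 gave 0.73 ± 0.05, AKR1C1 0.69 ± 0.06 and AKR1C3 0.50 ± 0.08 (SE; edgeR adjusted p = 2.04e-14, 2.03e-11 and 8.06e-05). These 4 reductases were the only named genes whose interaction stayed called under all 44 alternative settings and left-out libraries, among them counts summed per extract, with which 10 genes in all were called. Without Sibjeondaebo-tang the interaction called 12 genes, and without Atractylodes 25.

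From 20 to 500 µg/mL AKR1B10 increased with both types, by 1.15 ± 0.03 on the log2 scale with ethanol extracts and by 0.42 ± 0.04 with decoctions (SE; edgeR adjusted p = 4.08e-31 and 3.27e-10). Mean levels at 20, 100 and 500 µg/mL were 108 ± 3.18, 128 ± 8.95 and 238 ± 8.3 CPM with Poria, 99.5 ± 6.9, 125 ± 8.6 and 249 ± 12.6 CPM with Atractylodes, and 93.2 ± 5.09, 107 ± 3.89 and 186 ± 6.95 CPM with Ginseng (SD, n = 3 each). The decoctions reached 139 ± 7.22 CPM with Palmul-tang and 129 ± 2.44 CPM with Sibjeondaebo-tang at 500 µg/mL (SD, n = 3 each). Most of the increase lay between 100 and 500 µg/mL in all 5 extracts. Across the series of doses 34 of the 36 NRF2 members rose from 20 to 500 µg/mL with ethanol extracts and 20 rose with decoctions, against 7.13% and 0.584% of all tested genes.

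CXCL1 changed with dose in the decoctions, by 0.60 ± 0.07 on the log2 scale (SE; edgeR adjusted p = 2.32e-08), and by 0.17 ± 0.12 with ethanol extracts (edgeR adjusted p = 0.366). The difference of these changes, -0.43 ± 0.13 (SE), did not pass the edgeR test (adjusted p = 0.221), and neither did those of CXCL8 (-0.23 ± 0.07, adjusted p = 0.218) and CCL20 (-1.23 ± 0.39, adjusted p = 0.235). Palmul-tang gave 20.7 ± 0.973, 28.2 ± 2.68 and 31.8 ± 3.04 CPM of CXCL1 at the 3 doses, and Sibjeondaebo-tang 20.4 ± 0.365, 31.6 ± 2.23 and 30.6 ± 4.52 CPM (SD, n = 3 each). The means of the ethanol extracts stayed between 1.56 and 2.36 CPM at every dose. Interferon-stimulated genes fell from 20 to 500 µg/mL with both types, 15 of 30 with ethanol extracts and 6 of 30 with decoctions, against 6.64% and 0.566% of all tested genes. IFIT1, for one, fell by 0.56 ± 0.10 and 0.39 ± 0.10 on the log2 scale (SE; edgeR adjusted p = 2.66e-05 and 0.0427).

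**Figure D4:**
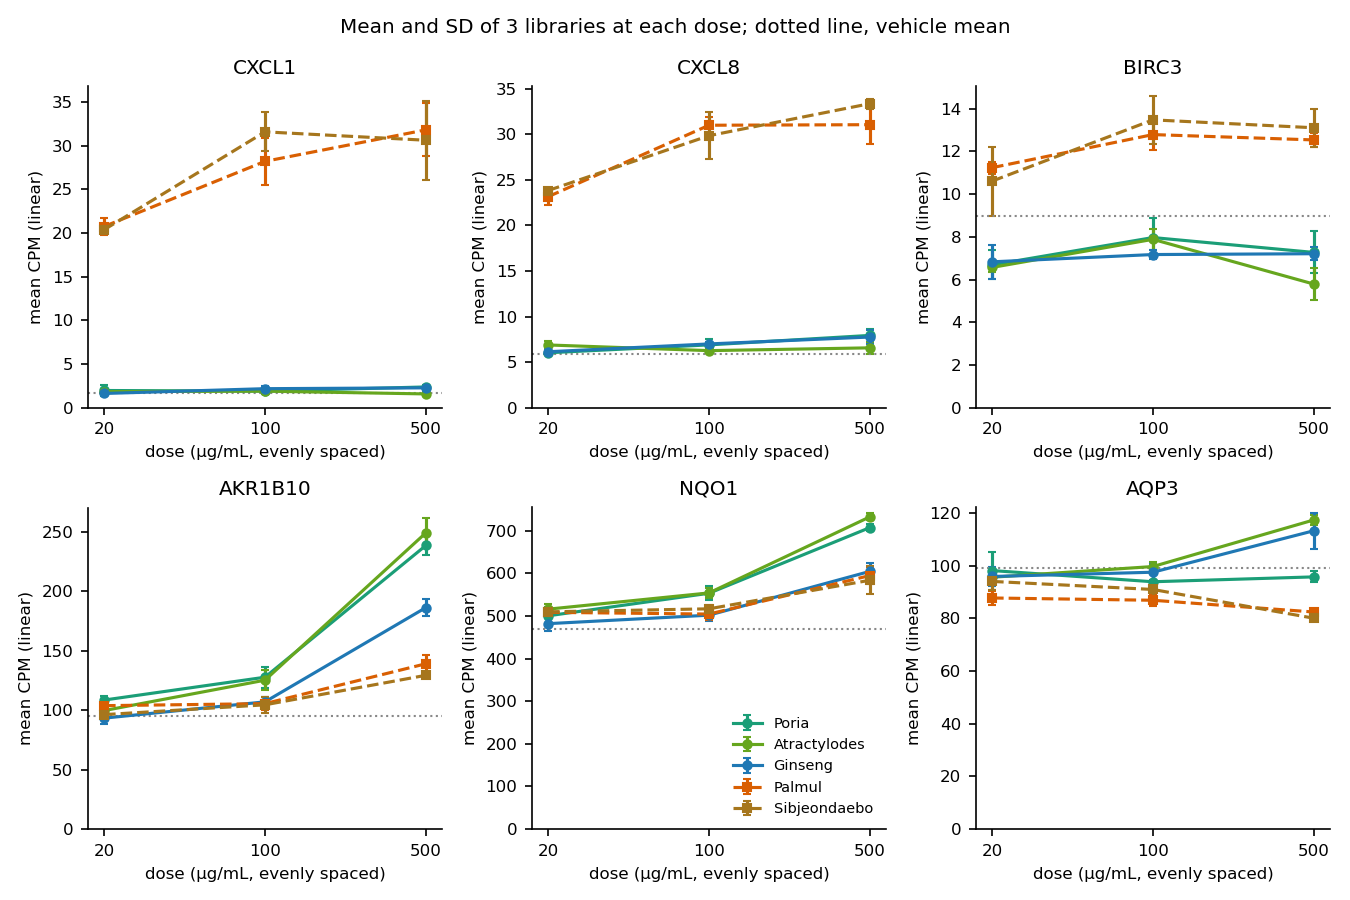
Mean CPM (linear) with SD of 3 libraries at 20, 100 and 500 µg/mL for each extract, with the vehicle mean as a dotted line; doses are evenly spaced on the axis. CXCL1 and CXCL8 are apart by extract type at every dose, while AKR1B10 separates by type at 500 µg/mL only and NQO1 with Ginseng stays near the decoctions.

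Other interactions were smaller. AQP3 gave 0.33 ± 0.04 (SE; edgeR adjusted p = 1.65e-06), with a rise of 0.17 ± 0.03 with ethanol extracts and a change of -0.16 ± 0.03 with decoctions (edgeR adjusted p = 5.26e-06 and 0.0029). CALB2 gave 0.27 ± 0.04, ALDH3A1 0.35 ± 0.05, NQO1 0.23 ± 0.03 and UGT1A10 0.20 ± 0.04 (SE; edgeR adjusted p = 6.21e-05, 6.46e-06, 4.02e-05 and 0.00085). Lower in the interaction were CLDN1 (-0.27 ± 0.05) and LINC00261 (-0.46 ± 0.09), a noncoding RNA next to the endoderm factor FOXA2 (SE; edgeR adjusted p = 0.00073 and 0.00676). The call of each of these genes was lost with counts summed per extract.

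Each ethanol extract was also set against the decoctions, in comparisons that share the decoction libraries. Poria gave 306 called genes (1.86%), Atractylodes 388 (2.36%) and Ginseng 378 (2.3%). Without Poria replicate 1 the Poria count was 109, without Atractylodes replicate 1 the Atractylodes count was 257, and without Ginseng replicate 2 the Ginseng count was 185. Chemokine and defence genes were lower in 12, 13 and 13 of 17 tested members, in that order, against 0.821%, 1.17% and 1.07% of all tested genes. CXCL1 differed from the decoctions by -3.72 ± 0.12, -4.32 ± 0.13 and -3.78 ± 0.12 on the log2 scale (SE). NRF2 members were higher in 29, 21 and 8 of 36, against 1.04%, 1.19% and 1.23% of all tested genes, and in Ginseng 1 was lower.

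The 3 ethanol extracts differed among themselves at 500 µg/mL in 186 genes (1.13%; edgeR test over the 3 extracts). Among them were 12 of the 36 NRF2 members, 20 of 25 cholesterol synthesis genes and 0 of 17 chemokine and defence genes. AKR1B10 was highest with Atractylodes and Poria, 0.89 ± 0.05 and 0.83 ± 0.05 above the decoctions on the log2 scale, and lowest with Ginseng, 0.47 ± 0.05 (SE; adjusted p of the difference among extracts 1.34e-06, edgeR). NQO1 stood 0.31 ± 0.03 above the decoctions with Atractylodes, 0.26 ± 0.03 with Poria and 0.04 ± 0.03 with Ginseng (SE; edgeR adjusted p among extracts 3.52e-06). For Ginseng the NQO1 difference from the decoctions did not pass the edgeR test (adjusted p = 0.648). Leaving out Poria replicates 1, 2 or 3 lowered the count among extracts from 186 to 118, 113 and 115.

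Genes of sterol handling were led by Atractylodes. ABCG1, a sterol exporter controlled by the oxysterol receptors LXR, had 14.7 ± 1.11 CPM with Atractylodes, 4.1 ± 0.721 CPM with Poria, 2.86 ± 0.525 CPM with Ginseng, 4.38 ± 0.479 CPM with Palmul-tang and 3.59 ± 0.529 CPM with Sibjeondaebo-tang (SD, n = 3 each). The Atractylodes libraries stood apart from all others, 1.90 ± 0.10 above the decoctions on the log2 scale (SE; edgeR adjusted p = 3.72e-20). The mean over ethanol extracts was called at 0.50 ± 0.09 (SE; edgeR adjusted p = 0.00018), and without Atractylodes it was -0.199 and not called (edgeR adjusted p = 0.337); with counts summed per extract it was not called either (edgeR adjusted p = 0.661). Of the 11 tested LXR targets 5 were higher in the comparison of all extracts at 500 µg/mL, and 7 with Atractylodes, 2 with Poria and 1 with Ginseng. The shares higher among all tested genes were 1.93%, 1.19%, 1.04% and 1.23%, in that order. ABCA1, another sterol exporter, was 0.72 ± 0.10 above the decoctions with Atractylodes (SE; edgeR adjusted p = 1.72e-06). Without Atractylodes the list members LPCAT3 and MYLIP also lost their call in the comparison of all extracts. NR1H3 and SREBF1 (log2 fold changes of 0.25 and 0.22 over all extracts) kept theirs, and lost it only with counts summed per extract.

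Cholesterol synthesis genes were lower with Atractylodes in 18 of 25 tested members, with Ginseng in 1 and with Poria in 0, where 1 was higher. Among all tested genes 1.17%, 1.07% and 0.821% were lower, in that order, and 1.04% were higher with Poria. LSS, the lanosterol synthase of this pathway, had 97.9 ± 2.34 CPM with Atractylodes, 118.8 ± 4.08 CPM with Ginseng and 131.8 ± 3.19 CPM with Poria (SD, n = 3 each), beside 121.9 ± 4.08 CPM with Palmul-tang and 127.4 ± 4.11 CPM with Sibjeondaebo-tang (SD, n = 3 each). The Atractylodes mean was the lowest of the 5, below the vehicle mean of 107.5 ± 0.901 CPM (SD, n = 3), and the log2 fold change of LSS with Atractylodes over the decoctions was -0.35 ± 0.03 (SE; edgeR adjusted p = 3.13e-12). The mean over ethanol extracts was called lower at -0.11 ± 0.02 (SE; edgeR adjusted p = 0.000709), and without Atractylodes it was 0.00698 (edgeR adjusted p = 0.929) and with counts summed per extract it was not called (edgeR adjusted p = 0.805). In all 3 ethanol extracts the same direction was called against the decoctions for 30 genes higher (0.182%) and 49 lower (0.298%).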

How the data were processed

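HT29 RNA was sequenced from directional libraries, per the labels' protocols. The authors' table holds an expected count for each gene, from RSEM 1.3.3; FastQC 0.11.9, Trim Galore 0.6.5, STAR 2.7.3a and build hg38 (GRCh38) are also named in the submitters' processing notes. RSEM shares reads between near-identical genes by estimated probability, so single members of such families are uncertain. The deposited expected counts were rounded (7.7% to 9.78% of values per library were not whole). A further 213 sample columns in it were left unused, and gene positions come from GENCODE on GRCh38.

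The 57 libraries of 19 groups of 3 entered a single fit in edgeR 4.0.16 under R 4.3.3 (TMM factors of 0.956 to 1.031, filterByExpr, 16445 genes, 38 residual degrees of freedom, common biological coefficient of variation 0.0501). Each extract had equal weight in a contrast. Angelica, with 1 library per dose, was left out. The quasi-likelihood F test was adjusted by Benjamini-Hochberg over all tested genes in each comparison. The SE of a log2 fold change is its size divided by the square root of F. CPM divide the rounded counts by the library's sum over tested genes, in M, and its TMM factor. The fit was also run on simulated counts, with the same spread for every gene and no variation between extracts. That run cannot show how the calls hold across extracts.

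Replicates were compared and none counted as a repeat of another. For the vehicle, labels state 0.1% DMSO and the series text states 2%. Genes were named by rule: the 10 highest and 10 lowest fold changes at 500 µg/mL without overlap, the 8 highest and 8 lowest interactions (at least 5 CPM), up to 4 called members per list (at least 1 CPM), and any member of the chemokine, NF-kB and LXR lists. Not every gene so named is described, and a pair left out of all counts of named genes is not reported here. The members and lists were chosen with earlier results of these data known. Alternatives were RLE factors, no filter, DESeq2 1.42.0, a replicate block, the mitochondrial share as covariate, thinned counts, only the compared groups, counts summed per extract, each extract and each library left out, and 100 µg/mL as the lower dose.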

Additional observations from a re-analysis of the deposited data

Results flagged for a closer look

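The change from 20 to 500 µg/mL differed between ethanol extracts and decoctions in 67 genes by the dose interaction (edgeR adjusted p below 0.05), and 30 named genes were among those called, 21 with the larger log2 change with ethanol extracts and 9 with the smaller. The aldo-keto reductases led, with interactions of 0.90 for AKR1C2, 0.73 for AKR1B10, 0.69 for AKR1C1 and 0.50 for AKR1C3 on the log2 scale. Other genes of oxidative and electrophile defence followed, ALDH3A1 with 0.35, GPX3 with 0.35, HMOX1 with 0.33, the cystine carrier SLC7A11 with 0.27, NQO1 with 0.23 and ME1 with 0.14. Genes of transport, differentiation and metabolism gave 0.33 for AQP3, 0.28 for ABCG2, 0.20 for UGT1A10, 0.27 for CALB2, 0.44 for CEACAM5, 0.24 for CEACAM6, 0.16 for ACADVL, a mitochondrial acyl-CoA dehydrogenase, and 0.25 for ASNS, the asparagine synthetase. MAP1A, a microtubule protein, gave 0.51, ID1, an inhibitor of basic helix-loop-helix factors, 0.39, and ADAM19, a metalloproteinase, 0.36.

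Negative interactions were -0.79 for CXCL3, -0.46 for LINC00261, -0.43 for each of SLC38A11, RNF144B and MRAS, -0.41 for LINC03040, -0.40 for the proton pump subunit ATP6V1B1, -0.27 for CLDN1 and -0.26 for the acetyl-CoA synthetase ACSS2. Of the 30 genes, 10 lost the call when 1 library or another was left out: ACADVL, CEACAM5, CEACAM6, CXCL3, HMOX1, LINC03040, MAP1A, ME1, RNF144B and SLC7A11. With counts summed per extract only 4 of the 30 kept the call, the aldo-keto reductases. Without Sibjeondaebo-tang 10 kept it, without Atractylodes 14, and with 100 µg/mL as the lower dose 16.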

How the results depend on the processing

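The count of 621 genes at 500 µg/mL stayed within 1.5 times under RLE factors, no filter, DESeq2, the mitochondrial covariate, thinned counts and the compared groups alone (481 to 843), but was 87 with counts summed per extract (28.7% higher in place of 51.2%) and 220 without Sibjeondaebo-tang. The 67 interaction genes became 169 with no filter (51.5% higher in place of 65.7%), 10 with counts summed per extract, 25 without Atractylodes (88% higher), 29 without Palmul-tang (75.9%), 12 without Sibjeondaebo-tang (83.3%) and 41 with 100 µg/mL as the lower dose (80.5%). At 20 µg/mL the 74 genes became 284 with no filter (35.9% higher in place of 4.05%) and 45 without Sibjeondaebo-tang, and 19.6% were higher with counts summed per extract. With no filter the dose change with decoctions gave 289, Poria 653, Ginseng 690 and the ethanol extracts among themselves 633. With only the compared groups the dose change with decoctions gave 109, Poria 151, Atractylodes 258 and Ginseng 166. Leaving out 1 library gave 446 to 651 genes at 500 µg/mL, 49 to 75 in the interaction, 61 to 81 at 20 µg/mL, 1864 to 2281 in the dose change with ethanol extracts, 119 (without Sibjeondaebo-tang low dose replicate 2; 123 without Palmul-tang low dose replicate 2) to 192 in that with decoctions, 109 to 352 for Poria, 257 to 393 for Atractylodes, 185 to 401 for Ginseng and 113 to 173 among ethanol extracts. For Poria, 4 libraries moved the count by over 1.5 times: Poria replicates 1 (109), 2 (144) and 3 (201) and Sibjeondaebo-tang replicate 3 (178). The labels give replicate numbers no shared origin, and the numbers were not taken as a pairing because not every same-numbered pair was above a correlation of deviations of 0.1 (135 pairs, -0.28 to 0.511, 64 above 0.1). In 8 of 45 pairs of groups all 3 were above it, and 75 of the 135 correlated best with the own number, a hint of shared variation from the data and not from the design. A replicate block gave 795 genes at 500 µg/mL, 118 in the interaction, 90 at 20 µg/mL, 301 in the dose change with decoctions, 481 for Poria and 290 among ethanol extracts. Without Atractylodes the sign turned for ABCG1 (-0.199), ACSS2 (0.0985, and 0.022 in the interaction) and LSS (0.00698), and with 100 µg/mL as the lower dose for the CXCL3 interaction (0.0955); the cause was not tested. Of 113 named genes called at 500 µg/mL, 37 were called under every setting that gave an adjusted p (26 to 28), CXCL1, CXCL2, CXCL3, CXCL5, CXCL6, CXCL8, CCL20, PI3, C3, BIRC3, AKR1B10, AKR1C1, AKR1C2 and AQP3 among them; 28 lost the call without some library. Counts below about 1 CPM limit SAA1, DUOX2 and CXCL5. With ethanol extracts IL32 and CEACAM7, among other genes, were also below 1 CPM.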
